A study of Mus musculus with 4 samples.

Results

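The genes described here are 10 genes of the mTOR and AMPK signalling pathways, Mtor, Rptor, Rictor, Rheb, Tsc1, Tsc2, Eif4ebp1, Eif4ebp2, Rps6kb1 and Prkaa1, in mouse 2-cell embryos cultured with or without dimethyl sulfoxide (DMSO). They were chosen by name, and each had 1 row among the 30049 genes of the deposited table. Wild type zygotes of BDF1 by BDF1 crosses (F2 embryos of C57BL/6 by DBA/2 hybrids) were cultured in KSOM, a medium for preimplantation embryos, and collected at the 2-cell stage. The control group had no addition, and the DMSO group had 2% DMSO in the medium for 24 h. Each group has 2 libraries, each made from pooled embryos, and nothing in the sources used here states that they came from separate cultures, so that p-values measure the spread between these libraries alone.

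mTOR is a protein kinase that works in a pair of complexes. With Raptor, the product of Rptor, it forms mTORC1, which promotes protein synthesis and growth when nutrients and growth factors are present. With Rictor it forms mTORC2, which phosphorylates Akt. The TSC proteins hold back the small GTPase Rheb, the direct activator of mTORC1, and AMPK, which senses a low energy charge of the cell, restrains mTORC1. The mTORC1 substrates S6 kinase and the eIF4E-binding proteins carry the signal to the translation machinery, and the preimplantation embryo depends on translation of stored maternal mRNA and of newly made mRNA.

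The values are TPM, a unit that corrects the reads of a gene for the length of its transcripts. It is meant to bring each library to the same total, so that levels of different genes can be set side by side. The table's genes had unequal totals. They summed to 768174 (replicate 1) and 780527 TPM (replicate 2) for the controls, and to 772487 and 799166 TPM for DMSO. TPM values keep no depth, and the depth of each library is unknown here. A TPM value is a share of a library's RNA, and less of an RNA in each cell cannot be told apart from more of other RNA or from fewer cells of one kind. The share held by the 20 most abundant genes was 22.1% and 23.6% for the controls and 29.4% and 35.1% for DMSO, and that of mitochondrially encoded genes was 10.8% and 12.4% against 15.3% and 21.7%.

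Markers of the stage and of other cells were looked up. Of 5 markers of the 2-cell stage with values, 4 were higher in both DMSO libraries than in both control libraries, and their summed level was 642 and 480 TPM in controls and 1700 and 1200 TPM under DMSO, with Tcstv3 the most abundant. The 7 oocyte and maternal markers summed to 199 and 116 TPM in controls and to 714 and 404 TPM under DMSO, with Bmp15 the most abundant. Both DMSO libraries lay above both control libraries for 4 of these markers and below them for 2, Zp3 and Mos. Among all genes with an average of at least 1 TPM, both DMSO libraries lay above for 31.1% and below for 38.7%. A lack of overlap in a marker is therefore common in these libraries. Nlrp5, an abundant maternal transcript in mouse eggs, was listed at 0 or at most 0.14 TPM in each library. The 12 markers of cumulus and granulosa cells, which surround the egg, summed to 3.17 and 2.09 TPM for the controls and to 3.36 and 3.08 TPM for DMSO. Tnfaip6 was the most abundant of them, and Amh, Lhcgr and Inhba were listed at 0 in every library. The 4 markers of the morula and blastocyst summed to between 14.3 and 18.0 TPM, with Nanog the most abundant, but the members differed in direction. Nanog was at 7.73 and 7.04 TPM in controls and at 11.5 and 14.0 TPM under DMSO, whereas Gata6 and Krt8 were lower in both DMSO libraries than in both control libraries. The part of the stage markers in the results below was not tested.

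Of the 10 genes, Rheb and Prkaa1 fell in DMSO-treated embryos, to 41.3% and 35.2% of the control mean. The kinase gene Mtor, the complex-defining genes Rptor and Rictor, the TSC genes, Eif4ebp1 and Rps6kb1 did not pass the test, and Eif4ebp2 was at or near 0 in all libraries. Of the 10 genes, 9 reached an average of 1 TPM over the 4 libraries. They were tested with limma, whose linear models steady each gene's variance with that of the other genes, on log2(TPM + 1), in 1 fit with the 12038 genes that reached it. At a Benjamini-Hochberg adjusted p-value under 0.05, 2 of the 9 were called lower and 0 higher. In that fit 14.1% of all genes tested were called lower and 6.42% higher, or 20.5% in either direction, so that 2 of 9 (22.2%) is near the background. The balance over all genes rested on the scaling, from 1697 lower and 773 higher on the deposited values to 1121 and 1076 after quantile normalization and 1038 and 982 with TPM rescaled without the most abundant and the mitochondrial genes. At an unadjusted p-value under 0.05 the count was also 2 of 9, against 40.2% of all genes tested. Both calls were lost without any 1 of the 4 libraries and with no filter on low values, where 0 genes passed. For any 1 gene, exact permutation of 2 and 2 libraries gives no p under 0.333. The summed level of the 10 genes was 313 and 282 TPM in controls and 217 and 200 TPM under DMSO. Rheb alone made up 162.4 and 136.9 TPM of it in controls and 70.1 and 53.5 TPM under DMSO. The sum therefore followed Rheb and is no measure of the other genes.

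**Figure D1:**
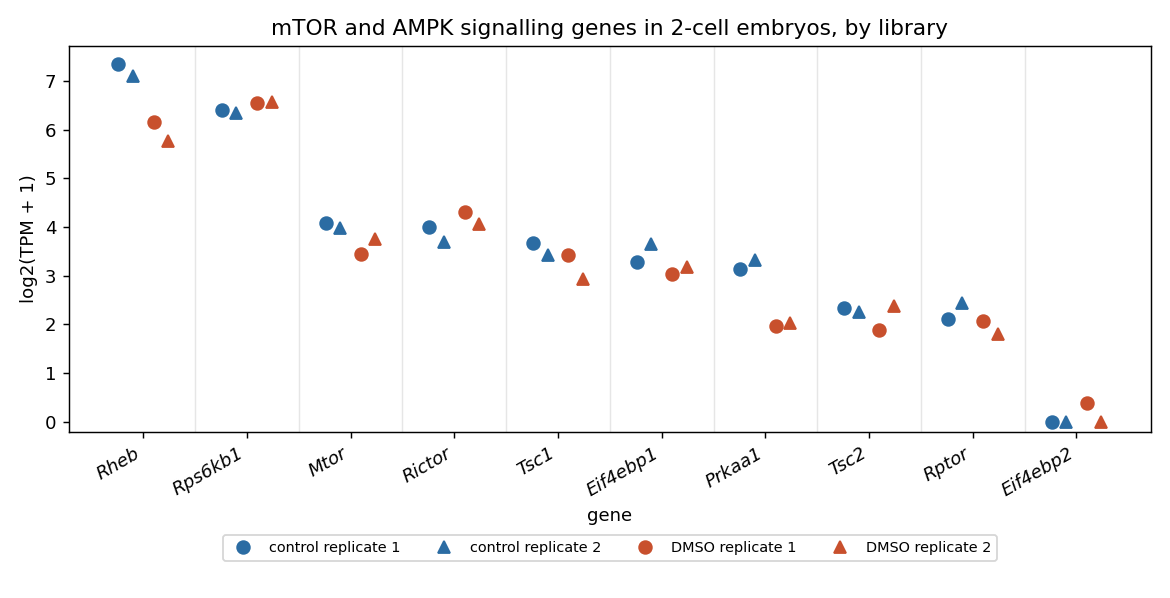
Level of each of the 10 genes in each library as log2(TPM + 1), ordered by the control mean, with control libraries in blue, DMSO libraries in red, replicate 1 as circles and replicate 2 as triangles. The Rheb and Prkaa1 points of the DMSO libraries lie clear of those of the control libraries, and Rps6kb1 lies at nearly the same height in all 4 libraries.

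Rheb (ENSMUSG00000028945, chr5:24802823-24842624 on the minus strand of GRCm38, in the GENCODE M21 annotation) encodes the GTPase that switches on mTORC1 at the lysosome. It was at 162.4 and 136.9 TPM in controls and at 70.1 and 53.5 TPM under DMSO. Both DMSO libraries lay below both control libraries, and Rheb was the most abundant of the 10 genes in control embryos. The fold change on the log2 scale was -1.27, with a standard error of 0.27 (limma adjusted p = 0.0294). When TPM was rescaled without the most abundant and the mitochondrial genes, it was -1.10 (limma adjusted p = 0.0429). Other genes share 1.5% of the 31-base words found in Rheb transcripts.

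Prkaa1 (ENSMUSG00000050697, chr15:5143861-5181899, plus strand) encodes the alpha subunit of AMPK that carries the kinase activity, in one of its 2 forms. It was at 7.86 and 9.08 TPM in controls and at 2.89 and 3.07 TPM under DMSO. The groups did not overlap, and within each group the libraries differed by less than the groups did. On the log2 scale the fold change was -1.25, with a standard error of 0.31 (limma adjusted p = 0.0390). With TPM rescaled without the most abundant and the mitochondrial genes it was -1.19, and the call was lost (limma adjusted p = 0.0540). Of its 31-base words 0.108% are shared with other genes.

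Since these are the genes that fell, their promoters were read from the RefSeq windows for GRCm38.p6, which held 9 of the 10 genes. The window of Rheb overlaps annotated exons, and the stretch left outside them was too short to be shown. The 250 bases before the start of Prkaa1 (chr15:5143611-5143860, plus strand, 5′ to 3′) are 85.2% G or C and lie outside annotated exons, with matches to a GC box in capitals.
Prkaa1: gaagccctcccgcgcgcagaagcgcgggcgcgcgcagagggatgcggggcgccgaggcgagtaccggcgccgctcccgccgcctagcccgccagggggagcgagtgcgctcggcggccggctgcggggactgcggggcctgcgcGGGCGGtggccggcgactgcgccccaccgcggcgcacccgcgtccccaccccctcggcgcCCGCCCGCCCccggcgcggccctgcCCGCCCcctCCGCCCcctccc
The GC box, to which Sp family factors bind, was searched as GGGCGG on either strand. It was found at 5 positions, some of which overlap. Of the 32851 promoter windows, which were not matched for their share of G or C, 32.7% hold at least 1. The letters of an E box, searched as CACGTG, were not in this stretch, and 6.02% of the windows hold them. Those of the ETS motif, searched as CCGGAAG, were not found either, and 6.91% of the windows hold them. A CCAAT box, the cyclic AMP response element, searched as TGACGTCA, and the TATA box, searched as TATAAA, were also not matched, and the windows hold them at 33.8%, 1.55% and 12.4%. These matches describe the sequence, and no binding was measured in these libraries.

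Mtor (ENSMUSG00000028991, chr4:148448611-148557683), the kinase common to both complexes, was at 15.9 and 14.7 TPM in controls and at 9.89 and 12.4 TPM under DMSO. The groups did not overlap, but the log2 fold change of -0.43 did not pass the test (standard error 0.29, 95% interval -1.14 to 0.27, limma adjusted p = 0.303). Rptor (ENSMUSG00000025583, chr11:119602905-119899576), which recruits substrates to mTORC1, was at 3.32 and 4.43 TPM in controls and at 3.22 and 2.51 TPM under DMSO. Control replicate 1 and DMSO replicate 1 were nearly level, and the log2 fold change was -0.33 (95% interval -1.14 to 0.48, limma adjusted p = 0.483). Rictor (ENSMUSG00000050310, chr15:6708379-6800401), the scaffold of mTORC2, was at 15.0 and 12.0 TPM in controls and at 18.8 and 15.8 TPM under DMSO. It was one of 2 genes with both DMSO libraries above both control libraries among those tested, with a log2 fold change of 0.34 (95% interval -0.37 to 1.04, limma adjusted p = 0.420).

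A ratio of a pair of genes inside a library does not depend on the scaling between libraries. The ratio of Rptor to Rictor was 0.221 and 0.369 in controls and 0.171 and 0.159 under DMSO, a difference of -0.79 on the log2 scale. It was lower in both DMSO libraries, with p = 0.333 by the exact two-sided permutation test, the smallest p that 4 libraries allow (adjusted p = 0.5 over the 3 pairs that could be compared). The difference was -0.42 without control replicate 2 and -1.16 without control replicate 1, so its size rested on which control library was used.

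Tsc1 (ENSMUSG00000026812, chr2:28641228-28691167) and Tsc2 (ENSMUSG00000002496, chr17:24595816-24632630) encode hamartin and tuberin, and tuberin is the part that turns Rheb off. Tsc1 was at 11.8 and 9.68 TPM in controls and at 9.71 and 6.61 TPM under DMSO, and Tsc2 at 4.04 and 3.76 TPM and at 2.70 and 4.20 TPM. The groups overlapped for both genes. The log2 fold changes were -0.37 for Tsc1 (95% interval -1.16 to 0.42, limma adjusted p = 0.420) and -0.16 for Tsc2 (95% interval -0.98 to 0.66, limma adjusted p = 0.744), and that of Tsc2 was 0.085 without DMSO replicate 1. Of the 31-base words of Tsc2 9.72% occur in other genes, and 6.66% in the neighbouring Pkd1. The ratio of Tsc1 to Tsc2 ran from 1.58 to 3.59, both in DMSO libraries, and was 2.92 and 2.57 in the control libraries (exact permutation p = 1).

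The outputs of mTORC1 were of very different abundance. Rps6kb1 (ENSMUSG00000020516, chr11:86498871-86544805), which encodes S6 kinase 1, was at 84.1 and 80.3 TPM in controls and at 92.6 and 93.6 TPM under DMSO. The groups did not overlap, the log2 fold change was 0.18 (95% interval -0.40 to 0.76), and it did not pass the test (limma adjusted p = 0.603). Eif4ebp1 (ENSMUSG00000031490, chr8:27260329-27276674), whose product holds the cap-binding factor eIF4E until mTORC1 phosphorylates it, was at 8.72 and 11.5 TPM in controls and at 7.22 and 8.05 TPM under DMSO. Its log2 fold change was -0.35 (95% interval -1.10 to 0.39, limma adjusted p = 0.419), and 7.2% of its 31-base words are shared with other genes, among them the processed pseudogene Gm14143. Its paralog Eif4ebp2 (ENSMUSG00000020091, chr10:61428491-61452661) was listed at 0 in both control libraries, at 0.307 TPM in DMSO replicate 1 and at 7.12e-06 TPM in DMSO replicate 2. It was not tested, and no ratio to Eif4ebp1 was formed. A value near 0 in this table does not show that a gene is silent, since some genes that nearly every cell uses were also listed at 0. Pgk1 was at 0.152 and 1.7 TPM in controls and at 0 in both DMSO libraries, and Polr2a was at 0.205 and 0.86 TPM in controls, at 0.417 TPM in DMSO replicate 1 and at 0 in DMSO replicate 2. Both were chosen after their values were seen.

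**Figure D2:**
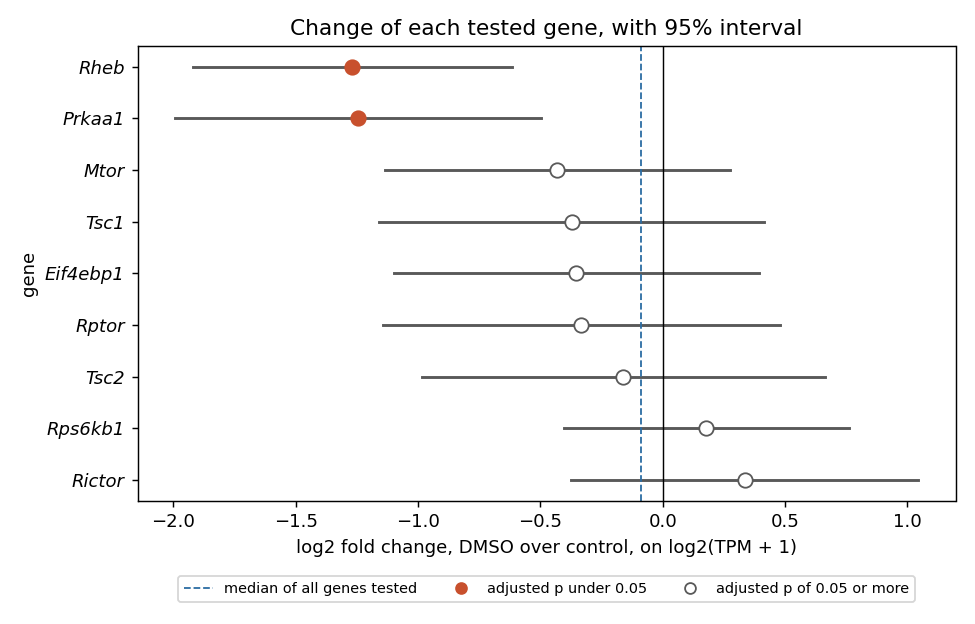
Log2 fold change of the 9 tested genes on log2(TPM + 1), DMSO over control, with the 95% interval of the limma fit as a line. Filled points passed an adjusted p-value of 0.05, and the dashed line is the median of all genes tested, -0.09. The intervals of Rheb and Prkaa1 lie wholly below 0, and those of the other 7 genes span 0.

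Among the 9 tested genes 7 had a negative log2 fold change, and the median was -0.35, beside -0.09 over all 12038 genes tested. In 5 of the 9 both DMSO libraries lay below both control libraries and in 2 both lay above. Over all genes tested these shares were 38.7% and 31.1%, or 69.8% together, so that a lack of overlap is common in these libraries. The median of the 9 genes moved to -0.22 with TPM rescaled without the most abundant and the mitochondrial genes, beside 0.06 over all genes tested. Without control replicate 2 it was -0.20, beside -0.15 over all genes tested, so the gap between these medians rested on that library.

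The listed levels also differ between the genes. Some genes that nearly every cell uses were listed near 0, so the order below is that of the listed values alone. In control embryos the order of the means was Rheb (149.6 ± 18.1 TPM, SD, n = 2), Rps6kb1 (82.2 ± 2.68), Mtor (15.3 ± 0.90), Rictor (13.5 ± 2.14), Tsc1 (10.7 ± 1.49), Eif4ebp1 (10.1 ± 1.96), Prkaa1 (8.47 ± 0.86), Tsc2 (3.90 ± 0.20) and Rptor (3.88 ± 0.78), with Eif4ebp2 listed at 0. The libraries of neighbours in this order overlapped for Mtor and Rictor, for Tsc1 and Eif4ebp1, for Eif4ebp1 and Prkaa1, and for Tsc2 and Rptor. In DMSO-treated embryos Rps6kb1 (93.1 ± 0.70 TPM, SD, n = 2) stood above Rheb (61.8 ± 11.8), with each library of Rps6kb1 above each of Rheb, and in control embryos each library of Rheb was above each of Rps6kb1. Prkaa1 (2.98 ± 0.13 TPM) then lay among Tsc2 (3.45 ± 1.06) and Rptor (2.86 ± 0.50), whose libraries overlapped with its own.

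AMPK is a heterotrimer of a catalytic alpha, a scaffolding beta and a nucleotide-binding gamma subunit, each with alternative genes, and the other subunit genes were examined beside Prkaa1. Prkag1, the widely expressed gamma subunit, fell from 43.1 and 39.4 TPM in controls to 14.1 and 17.8 TPM under DMSO (log2 fold change -1.32, limma adjusted p = 0.0285). Prkag2, an alternative gamma subunit known for its role in the heart, rose from 3.10 and 3.10 TPM to 9.57 and 8.90 TPM (log2 fold change 1.32, limma adjusted p = 0.0335). The groups did not overlap for either gene, and in every library Prkag1 stayed above Prkag2. Prkab1, a beta subunit, was at 37.2 and 27.4 TPM in controls and at 14.2 and 19.0 TPM under DMSO, and it did not pass the test (log2 fold change -0.92, limma adjusted p = 0.0771). Of the 31-base words of Prkag1 35% occur in the antisense gene B130046B21Rik and of those of Prkag2 11.4% in the antisense gene Prkag2os2. No use of strand in the counting is stated, so reads of these genes and of their antisense partners may not be told apart.

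The other catalytic subunit gene, Prkaa2, was at 1.21 and 0.841 TPM in controls and at 1.22 and 0.704 TPM under DMSO, a mean just under the filter, and was not tested. Its groups overlapped. The ratio of Prkaa1 to Prkaa2 was 6.49 and 10.8 in controls and 2.38 and 4.36 under DMSO, a difference of -1.38 on the log2 scale, lower in both DMSO libraries (exact two-sided permutation p = 0.333, the smallest possible, adjusted p = 0.5 over 3 pairs). Prkab2 and Prkag3 were at or near 0 in all libraries.

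**Figure D3:**
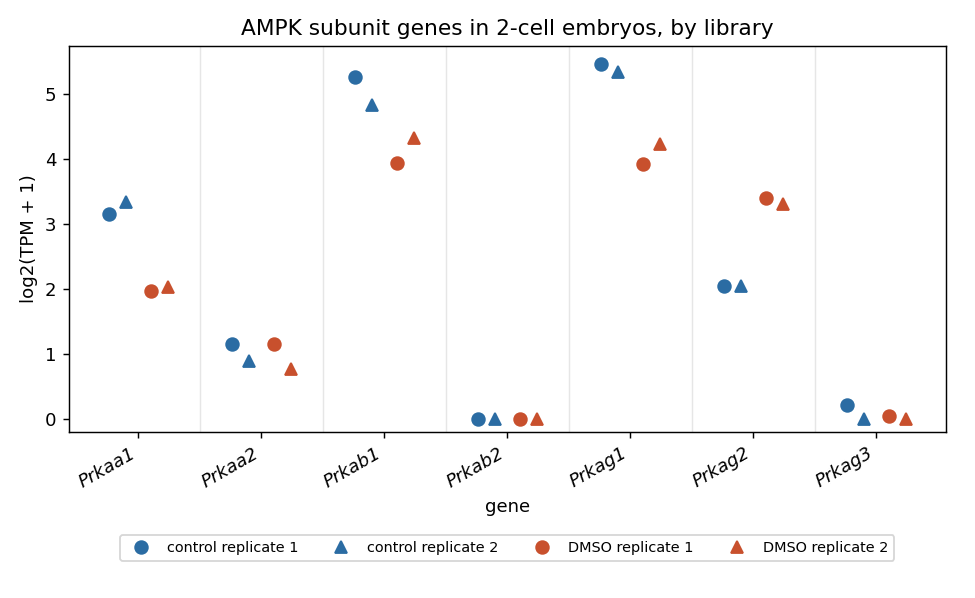
Level of the 7 AMPK subunit genes in each library as log2(TPM + 1), with control libraries in blue, DMSO libraries in red, replicate 1 as circles and replicate 2 as triangles. Prkaa1, Prkab1 and Prkag1 sit lower and Prkag2 higher in both DMSO libraries, of which the change of Prkab1 did not pass the test, and Prkab2 and Prkag3 lie at or near 0.

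A list of 83 other genes of the pathways, written by function, gave a wider view. Of these 81 had values and 59 were tested, the 22 others having a mean under 1 TPM, and Eif4e and Ulk1 were not analysed here. limma called 12 of the 59 lower and 4 higher, 27.1% against 20.5% of all genes tested. The median log2 fold change was -0.46, beside -0.09 over all genes tested, and with a filter at an average of 5 TPM these medians were -0.24 and -0.19. The balance of directions rested on the scaling: 9 were lower and 5 higher with median-ratio scaling, 5 and 7 with quantile normalization, and 4 and 7 with TPM rescaled without the most abundant and the mitochondrial genes. With no filter on low values limma called 0 of the list and 0 of the 10 genes, while 33 and 2 had an unadjusted p-value under 0.05, as had 5368 of all 22257 genes in that fit.

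Upstream of mTORC1, the machinery that reports amino acids was the group with the most tested genes. Of these 16 genes 4 were called, all lower, or 25% against 14.1% of all genes tested in that direction and 20.5% in either. Kptn, a subunit of the KICSTOR complex that holds GATOR1 at the lysosome, fell from 7.93 and 8.04 TPM to 1.81 and 1.07 TPM (log2 fold change -1.90, limma adjusted p = 0.0221). The GATOR2 subunit genes Mios and Wdr24 fell to 44.0% and 24.6% of the control mean (log2 fold changes -1.14 and -1.36), and Castor1, an arginine sensor that binds GATOR2, to 38.0% (log2 fold change -1.39). Mios, Wdr24 and Castor1 had limma adjusted p-values of 0.0349, 0.0445 and 0.0386. With quantile normalization the log2 fold changes of these 3 genes were -0.95, -1.365 and -1.18. Their calls were then lost (limma adjusted p = 0.0525, 0.0518 and 0.0668), and that of Kptn held.

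Of the 6 tested Rag GTPase and Ragulator genes, which dock mTORC1 at the lysosome, 1 was called (16.7%, against 20.5% of all genes tested). Lamtor2 fell from 35.9 and 26.8 TPM to 14.3 and 12.9 TPM (log2 fold change -1.14, limma adjusted p = 0.0414). After quantile normalization its log2 fold change was -0.97, and the call was lost (limma adjusted p = 0.0525). The others did not pass the test. Rraga, at 15.2 and 7.64 TPM in controls, was at 32.8 and 19.97 TPM under DMSO, and Rragc at 143.6 and 122.4 TPM against 248.1 and 214.3 TPM (limma adjusted p = 0.0864 and 0.0659). Rhebl1, the paralog of Rheb, fell from 111.7 and 88.1 TPM to 46.9 and 40.5 TPM (log2 fold change -1.17, limma adjusted p = 0.0330). Quantile normalization gave a log2 fold change of -0.88, and the call was lost (limma adjusted p = 0.0561). Of the 31-base words of Rhebl1 15.7% are shared with Dhh. Both Rheb genes were therefore at similar fractions of the control mean in DMSO-treated embryos, 41.3% and 43.7%. Tbc1d7, the third subunit of the TSC complex, was at 1.06 and 2.02 TPM in controls and at 6.59 and 2.65 TPM under DMSO and did not pass the test (limma adjusted p = 0.131).

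Of the partners of the kinase itself, Deptor, an inhibitor of both mTOR complexes, rose from 17.0 and 10.6 TPM to 46.3 and 30.5 TPM (log2 fold change 1.42, limma adjusted p = 0.0392). The mTORC2 partners Mapkap1, Prr5 and Prr5l had positive log2 fold changes, 0.28, 1.24 and 1.02, and 0 of the 3 passed the limma test, and 2 had an unadjusted p-value under 0.05, which 40.2% of all genes tested had. Mlst8, a subunit of both complexes, was at or near 0 in all libraries and was not tested.

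The growth factor input had 3 calls among 10 tested genes, 2 lower and 1 higher, or 30% against 20.5% of all genes tested. Ddit4l rose from 55.7 and 68.9 TPM to 257.8 and 239.9 TPM, to 399.4% of the control mean (log2 fold change 1.99 with a standard error of 0.25, limma adjusted p = 0.0181). Its relative Ddit4, also known as REDD1, fell from 18.1 and 15.8 TPM to 7.21 and 6.01 TPM (log2 fold change -1.24, limma adjusted p = 0.0361). Both encode stress-responsive inhibitors of mTORC1, and the groups did not overlap for either. With TPM rescaled without the most abundant and the mitochondrial genes the log2 fold change of Ddit4 was -1.12. Its call was then lost (limma adjusted p = 0.0509), and that of Ddit4l held. Pik3cb, a catalytic subunit of phosphoinositide 3-kinase, fell from 38.0 and 36.8 TPM to 12.3 and 16.5 TPM (log2 fold change -1.33, limma adjusted p = 0.0297). The other listed catalytic subunit gene, Pik3ca, was at 41.5 and 32.1 TPM in controls and at 38.9 and 27.5 TPM under DMSO. The groups overlapped for Pik3ca, and it did not pass the test (limma adjusted p = 0.728), nor did Akt1 and Pdpk1.

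Downstream of mTORC1, 2 of 8 tested genes were called, both lower, or 25% against 14.1% of all genes tested in that direction and 20.5% in either. At an unadjusted p-value under 0.05 the count was 7 of 8, 5 lower and 2 higher, against 40.2% of all genes tested. Larp1, which binds the 5′ ends of mRNAs for the translation machinery and is regulated by mTORC1, fell from 27.9 and 32.2 TPM to 3.72 and 8.96 TPM (log2 fold change -2.18 with a standard error of 0.41, limma adjusted p = 0.0239), and 10.3% of its 31-base words are shared, nearly all with a processed pseudogene. Grb10, an adaptor that dampens insulin signalling and is a substrate of mTORC1, fell from 14.9 and 20.9 TPM to 6.73 and 7.08 TPM (log2 fold change -1.24, limma adjusted p = 0.0398). Its log2 fold change was -1.13 after quantile normalization, and the call was lost (limma adjusted p = 0.0548). Eef2k, the kinase that inhibits elongation factor eEF2, was at 29.1 and 9.09 TPM in controls and at 141.9 and 35.1 TPM under DMSO. In each group replicate 1 lay far above replicate 2, and its log2 fold change ran from 1.05 to 3.04 with 1 library left out. Eef2k did not pass the test (log2 fold change 2.04 with a standard error of 0.74, limma adjusted p = 0.0910).

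Of the 5 tested genes upstream of AMPK 1 was called (20%, against 20.5% of all genes tested). Cab39l, a partner of the upstream kinase Stk11 (also known as LKB1), fell from 24.8 and 25.9 TPM to 9.03 and 12.4 TPM (log2 fold change -1.18, limma adjusted p = 0.0393). The log2 fold change of Cab39l was -1.025 after quantile normalization, and the call was lost (limma adjusted p = 0.0597). Its paralog Cab39 was more abundant, at 227.8 and 245.5 TPM in controls and 156.9 and 181.9 TPM under DMSO. Cab39 did not pass the test (limma adjusted p = 0.184), nor did Strada and Stradb. Stk11 itself was among the more abundant genes of the list, at 194.1 and 195.9 TPM in controls and 139.3 and 179.2 TPM under DMSO, and did not pass the test (limma adjusted p = 0.402). Of the 4 tested AMPK substrates 1 was called (25%, against 20.5% of all genes tested). Mff, a receptor for mitochondrial fission, rose from 61.4 and 41.0 TPM to 188.3 and 153.2 TPM (log2 fold change 1.74, limma adjusted p = 0.0216). These are levels of RNA, and phosphorylation by mTOR or AMPK was not measured in these libraries.

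**Figure D4:**
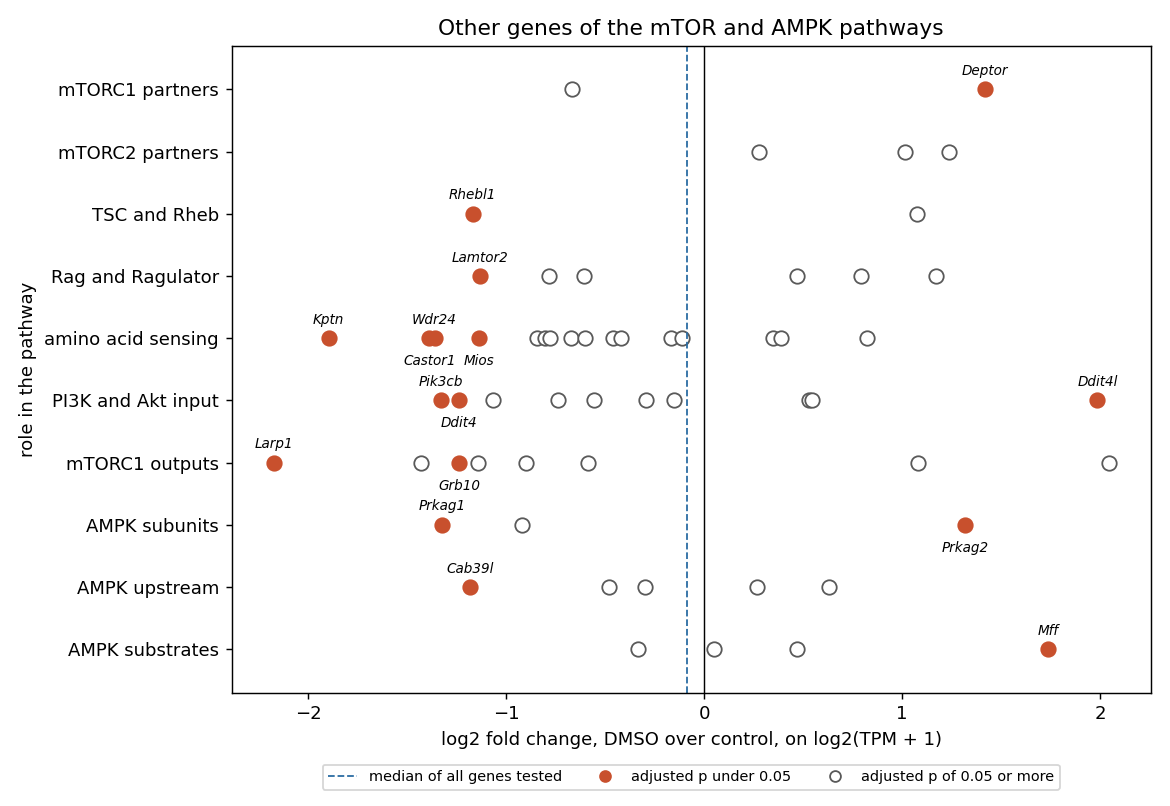
Log2 fold change on log2(TPM + 1), DMSO over control, of the 59 tested genes of the wider list, 1 point a gene, grouped by role. Filled and named points passed a limma adjusted p-value of 0.05, and the dashed line is the median of all genes tested. Named points lie on both sides of 0, 12 lower and 4 higher on the deposited values, a balance that turns to 5 and 7 with quantile normalization.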

How the data were processed

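The authors pseudoaligned reads with kallisto to the Ensembl transcriptome of GRCm38, summed transcripts per gene with tximport, and deposited TPM values for 30049 genes. The labels give the reads as single-end and the study's methods as paired-end, and kallisto's version is not given in the sources used here. The authors' own test was DESeq2. The deposited TPM values are not counts, so limma 3.58.1 in R 4.3.3 was used instead (moderated variances with a trend on the mean, values as log2(TPM + 1), genes averaging 1 TPM or more, no replicate block, Benjamini-Hochberg adjustment over the 12038 genes tested). The log2(TPM + 1) scale understates the change of low genes. Samples were grouped by their labels. Depth, and so counting error, cannot be had from TPM.

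Symbols and coordinates came from GENCODE M21 (GRCm38), which named 29668 of the gene identifiers. As a measure of ambiguous reads, the 31-base words of a gene's transcripts, on either strand, were looked up in transcripts of other genes. The fit was also run on simulated data, and no outcome of that run is given or relied on here. The genes and lists were chosen with earlier results of these data known. The rule for named genes was all 10 genes, every pathway gene called, and Prkaa2. Other pathway genes named were chosen after their values were seen. Alternatives were a pseudocount of 0.1, no filter, a filter at an average of 5 TPM, variances without a trend, 3 scalings, the replicate block, and leaving out each library. Other steps ran in Python 3.11.15 (pandas 2.3.3, scipy 1.17.1).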

Additional observations from a re-analysis of the deposited data

How the results depend on the processing

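Rheb and Prkaa1 kept a negative log2 fold change in every setting tried, between -1.46 and -0.99 for Rheb and between -1.47 and -1.15 for Prkaa1. The number of the 10 genes called was 2 with a pseudocount of 0.1, a mean of at least 5 TPM, no trend, median-ratio scaling and quantile normalization. It was 1 with TPM rescaled without the most abundant and mitochondrial genes, where the median of the 9 genes was -0.22, and where the median of all genes moved from -0.09 to 0.06. With no filter on low values 0 of the 10 genes, 0 of the 81 pathway genes and 0 of 22257 genes were called by limma (2, 33 and 5368 at an unadjusted p-value under 0.05), and the median of the pathway genes was -0.11, against -0.24 with a mean of at least 5 TPM.

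Without 1 library its group holds a single one, which is then assumed to vary like the other group, and 1 residual degree of freedom. The 10 genes then gave 0 limma calls in each of the 4 cases (2 of 9 at an unadjusted p-value under 0.05 in each, where 2602 to 4754 of all 12038 genes had one, median -0.41 to -0.20), the pathway genes 0 to 8 (median -0.53 to -0.43) and all genes 0 to 1883. Calls were made only without DMSO replicate 2, and fewer samples are part of the construction of these fits. The log2 fold change of Tsc2 reversed to 0.085 without DMSO replicate 1. The log2 ratio difference ran from -1.16 to -0.42 for Rptor to Rictor, from -0.80 to 0.39 for Tsc1 to Tsc2, and from -1.82 to -0.94 for Prkaa1 to Prkaa2.

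The groups share replicate numbers, and the deviations of same-numbered libraries had r = 0.354 over the genes, which are not independent of each other, but with 2 pairs and no statement of a shared batch they share only a number. With the replicate block 2 of the 10 genes, 31 of the pathway genes (19 lower, 12 higher) and 5132 of all genes were called, against 2, 16 and 2470 without it. The alternatives for single pathway genes were chosen after seeing the data.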
